A study of Mus musculus with 12 samples.

Results

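The genes described here encode the molecular chaperones and prolyl isomerases of the mouse, the proteins that fold other proteins. They were chosen by symbol from the gene table, as the CCT chaperonin subunits with *Tcp1*, the prefoldins, the HSP70, HSP90 and HSP60/HSP10 genes, the J-domain genes of the *Dnaja*, *Dnajb* and *Dnajc* series, the cyclophilins *Ppia* to *Ppih* and the *Fkbp* genes. This gave 100 of the 35976 genes counted, in 10 families of 2 to 28 genes, by a rule on symbols alone that was written with earlier results of these data known. RNA was measured in testes of E15.5 embryos of outbred Swiss (RjOrl) mice, each library being a pool of testes from 3 embryos. In the *thia* group of F1, pregnant females had received thiacloprid (*thia*), a neonicotinoid insecticide, at 6 mg/kg/day by gavage in olive oil from E6.5 to E15.5, so that the embryos themselves were exposed. The F1 control embryos came from females given olive oil alone. F3 embryos descended from such exposed or control F1 males through males crossed in each generation with untreated females that were not littermates, so no F3 embryo met the compound. Each of the 4 groups, F1 control, F1 *thia*, F3 control and F3 *thia*, had 3 libraries, and the labels tie no library of one generation to a library of the other. The study ran the breeding from F0 to F3 as 2 independent rounds of treatment, and the labels do not say from which round a library came, so a round could not be used as a batch.

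Chaperones hold unfolded or partly folded chains and release them in cycles that use ATP. HSP70 proteins bind short hydrophobic stretches, J-domain proteins deliver the client and start the ATP cycle, and HSP90 takes over many kinases and hormone receptors. The ring-shaped chaperonin TRiC, made of the products of *Tcp1* and *Cct2* to *Cct8*, folds actin and tubulin handed to it by prefoldin, and HSP60 with its lid HSP10 does related work in mitochondria. Cyclophilins and FKBPs turn the peptide bond before proline, a slow step of folding, and some of them are parts of the spliceosome or of receptor complexes. The fetal testis relies on such proteins for steroid receptor function, for tubulin-rich Sertoli cells and for germ cells, where several J-domain and HSP70 genes have testis-specific forms.

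Libraries held 25081647 to 68996146 counts, with group medians from 39873949 to 49497734, and levels are given in CPM (counts scaled to a common library size over the 12 libraries by TMM). Testis markers were well expressed, and none of the markers listed for germ, Sertoli, Leydig or interstitial cells was at 0 in all libraries. Markers of several cell types moved with the groups. In F3 *thia*, 12 of 12 germ cell markers were lower and 8 of 8 Leydig cell markers higher than in F3 control, and in F1 *thia* 11 of 12 germ cell markers were lower. Sertoli cell markers were higher in 10 of 12 in F1 *thia*. There the 1 marker with an unadjusted edgeR p under 0.05, *Dmrt1*, was lower (log2 fold change -0.23), beside 4.13% lower among all genes. In F3 *thia* 6 Sertoli cell markers were higher and 6 lower, with 3 higher and 0 lower at an unadjusted edgeR p under 0.05. Among all genes in F3, 11.0% were higher and 10.0% lower at such a p. The Sertoli sums overlapped in F3, at 1174 to 1434 CPM in control and 1080 to 1745 in *thia*. Endothelial and interstitial markers were each higher in 7 of 8 in F3 *thia*. At such a p, 6 endothelial markers were higher and 1 lower, and 5 interstitial markers were higher and 0 lower. Endothelial sums were 218 to 240 CPM in F3 control and 289 to 344 in F3 *thia*, and interstitial sums 1182 to 1345 and 1329 to 1521. The summed level of 12 germ cell markers was 1296 to 1758 CPM in F1 control and 1155 to 1343 in F1 *thia*, then 751 to 1170 in F3 control and 529 to 1007 in F3 *thia*. The 8 Leydig cell markers ranged from 2633 to 4324 CPM in F3 control and from 4766 to 8577 in F3 *thia*, and 10 ribosomal protein genes from 23323 to 26476 against 18674 to 20975. Skeletal muscle markers summed to 803 CPM in F1 *thia* replicate 2 and to 75.8 to 144 in the other libraries of F1, and globin and other red cell genes summed to 5272 to 19143 CPM in F1 and 45448 to 83549 in F3. In pooled tissue, fewer cells of a type and less RNA per cell cannot be told apart, and the part of these shifts in the results on chaperones was not tested.

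Differences between *thia* and control were small in F1 and leaned downward in F3. Of the 100 genes, 96 had enough counts for a test. In F1 none of them passed edgeR at a false discovery rate of 0.15, where 0.0105% of all genes did. In F3 none passed at 0.1, where 0.0% of all genes did, and the smallest edgeR adjusted p was 0.101, for *Ppih*. In F3, 16 of the 96 had an adjusted p under 0.15, the F1 threshold, against 9.85% of all genes. With DESeq2, the tool used in the study, 1 gene passed in F1 (all genes, 1.01%) and 18 of 93 in F3. Of those, 15 were lower in *thia*, against 5.70% of all genes, and 3 were higher, against 9.17%. The lower genes were *Tcp1*, *Cct2*, *Cct3*, *Cct4*, *Cct5*, *Cct6a*, *Pfdn1*, *Ppia*, *Ppie*, *Ppih*, *Fkbp3*, *Fkbp4*, *Dnajb6*, *Dnajc9* and *Dnajc24*. The higher genes were *Dnajb12*, *Dnajc1* and *Dnajc16*. Without adjustment, 3 genes in F1 had an edgeR p under 0.05, all lower in *thia* (all genes, 4.13% lower and 4.63% higher). In F3 it was 25 lower and 6 higher of 96, against 10.0% lower and 11.0% higher among all genes. A p under 0.05 below is this unadjusted edgeR p, and no gene counted by it passed the adjusted test.

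The separation of libraries is another description of the same values, not separate support, and it was split alike. In F3, all 3 *thia* libraries lay below all 3 control libraries for 31 of the 96 genes (all genes, 13.9%), and above them for 9 (13.4%). In F1, 12 genes were below (8.45%) and 0 above (6.55%). The median log2 fold change over the 96 genes was -0.02 in F1 and -0.08 in F3, beside 0.01 and 0.00 over all genes tested. That median hides a division by family, which the plot of fold changes by family shows. In F3 the median was -0.35 for the CCT family, -0.27 for prefoldins, -0.24 for *Dnaja* and -0.21 for cyclophilins. It was -0.06 for HSP70, -0.04 for HSP90 and *Dnajb*, -0.03 for HSP60/HSP10, -0.02 for FKBPs and 0.01 for *Dnajc*. In F1 the family medians ran from -0.14 (*Dnaja*) to 0.09 (FKBPs).

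**Figure D1:**
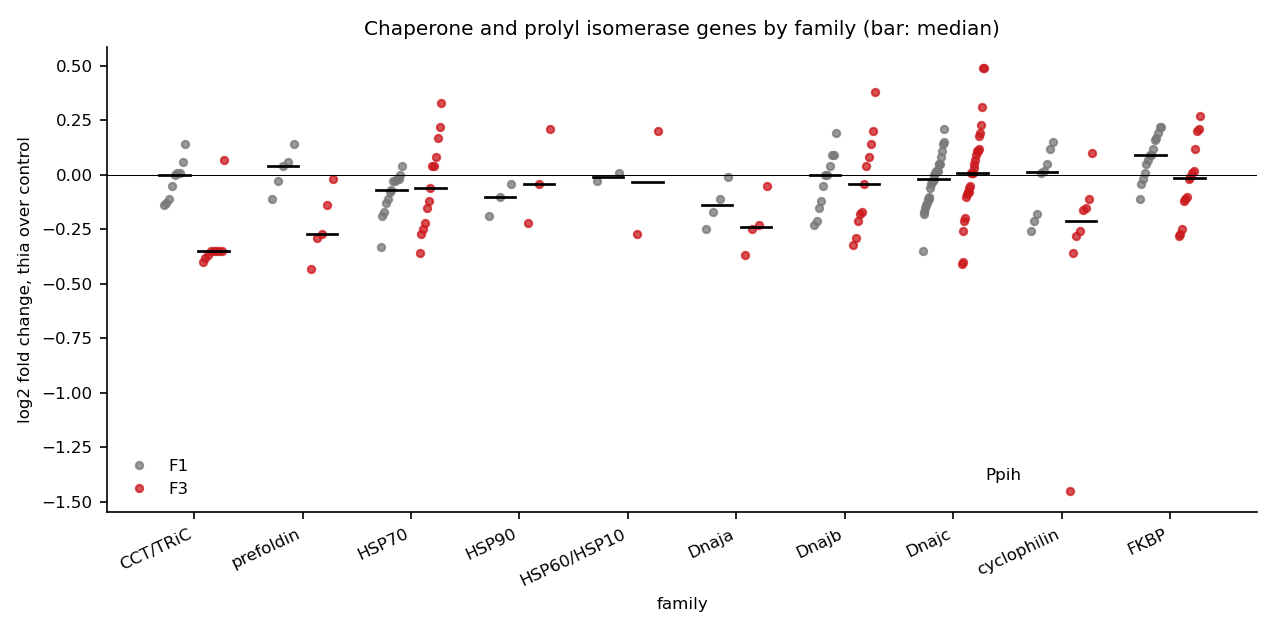
Log2 fold change of *thia* over control (vertical axis) for each tested gene of 10 families (horizontal axis), with F1 in grey, F3 in red and a bar at the median. The CCT genes of F3 form a tight group between -0.40 and -0.35 with *Cct6b* alone above 0, and *Ppih* lies apart at -1.45.

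The TRiC subunits had lower means together in F3 *thia*, with 6 of 8 at a p under 0.05 (all genes, 10.0% lower). The complex needs its 8 different subunits in equal number, each encoded by its own gene on its own chromosome. All 8 genes had negative log2 fold changes in F3, between -0.40 and -0.35, a span smaller than the standard error of any of them. Summed over the 8 genes, the level was 5346, 4674 and 4477 CPM in the F3 control libraries and 4345, 3532 and 3387 in F3 *thia*. The highest F3 *thia* library was thus just below the lowest control. In F1 the sums were 4601, 5090 and 4454 in control and 4616, 4479 and 4578 in *thia*, which overlapped.

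Single subunits showed the same picture, as the plot by library displays. *Cct4* had 558, 514 and 500.3 CPM in F3 control and 427, 404 and 376 in F3 *thia*. Its log2 fold change was -0.38 ± 0.0803 SE, edgeR adjusted p = 0.105. *Cct3* had 489, 439 and 449 against 382, 360.1 and 338 CPM, a log2 fold change of -0.35 ± 0.0799 SE, edgeR adjusted p = 0.105. In both genes every *thia* library was below every control library, and DESeq2 called both, with adjusted p of 0.00691 and 0.0137. DESeq2 also called *Cct5*, *Cct6a*, *Tcp1* and *Cct2*, with adjusted p of 0.0267, 0.0334, 0.0809 and 0.0931. *Cct6a* had 364, 348 and 347 against 310.4, 273 and 248 CPM, with a log2 fold change of -0.35 ± 0.0918 SE, edgeR adjusted p = 0.119. *Cct5*, the highest subunit per kilobase of transcript at 388 CPM per kb, had 907, 801 and 769.9 against 710.2, 579.8 and 586 CPM, with a log2 fold change of -0.40 ± 0.107 SE, edgeR adjusted p = 0.122. The groups did not overlap in these genes, nor in *Cct2* and *Tcp1* (log2 fold changes -0.35 and -0.37). They overlapped in *Cct7*, with 891, 776 and 706 CPM in control and 789, 532 and 544 in *thia* (log2 fold change -0.35 ± 0.165 SE, edgeR adjusted p = 0.276). *Cct8* overlapped as well, with an edgeR adjusted p of 0.273. In F1 no subunit had a p under 0.05 and the log2 fold changes lay between -0.14 and 0.06, though all *thia* libraries were below the controls in *Cct2* and *Cct6a*.

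**Figure D2:**
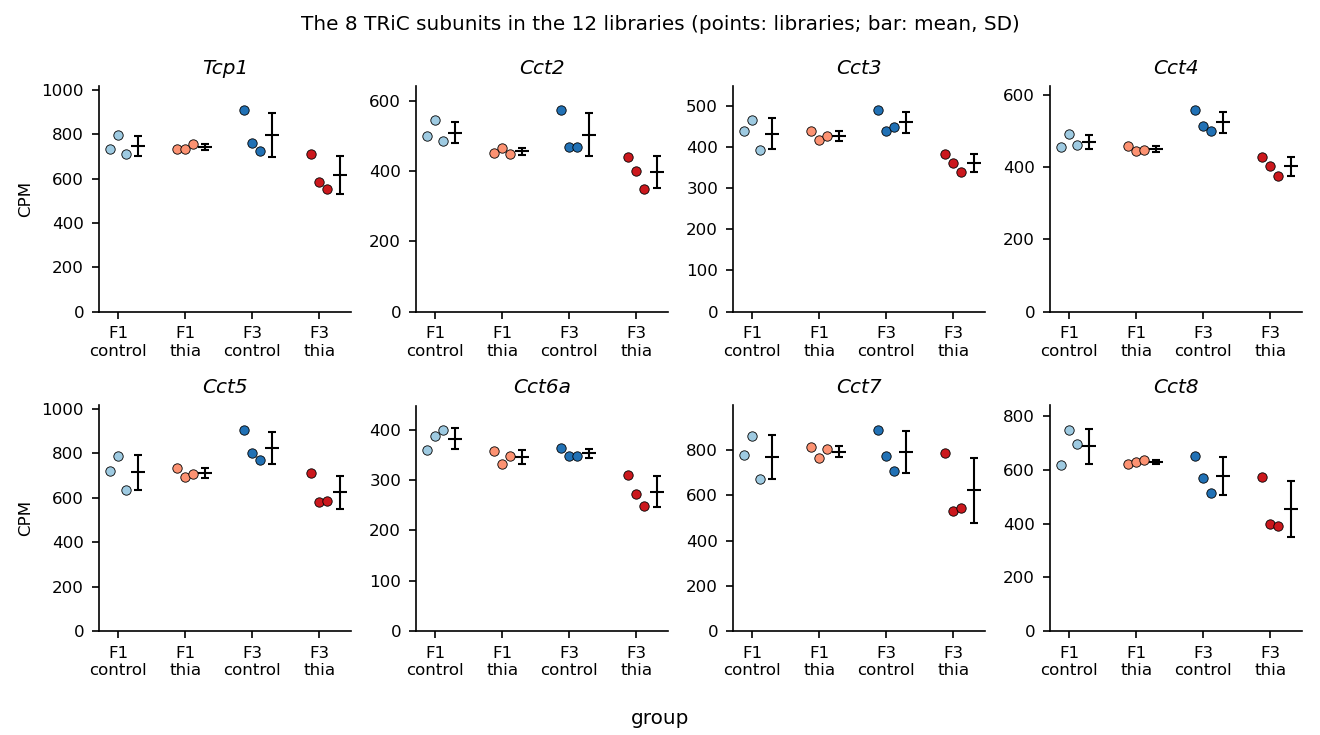
Level in CPM (vertical axis, from 0) of the 8 TRiC subunit genes in the 12 libraries, by group (horizontal axis), with points for libraries and a bar for the mean and SD of 3. In F3 the *thia* libraries lie below the controls in 6 genes, and in *Cct7* and *Cct8* 1 *thia* library lies among the controls.

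The mean proportions among the subunits stayed close between the F3 groups, while single *thia* libraries varied more for some subunits. *Cct7* ranged from 15.8 to 16.7% of the TRiC sum in F3 control and from 15.1 to 18.2% in F3 *thia*. For *Cct4* the ranges were 10.4 to 11.2% and 9.83 to 11.4%. *Cct5* made up 17.1% of the summed TRiC level in F3 control (range 17.0 to 17.2%) and 16.7% in F3 *thia* (16.4 to 17.3%), and *Tcp1* 16.5% and 16.4%. *Cct8* made up 11.9% in F3 control and 11.3 to 13.2% in F3 *thia*, against 14.6% in F1 control. Replicate 1 was the highest in both F3 groups for all 8 subunits, and it was also the highest of its group in the germ cell marker sum (1170 CPM in control and 1007 in *thia*). Without control replicate 1 the median of the CCT family was -0.27 and without *thia* replicate 1 it was -0.45. The part of the germ cells in the TRiC difference was not tested. The germ cell marker sums of the other libraries were 1008 and 751 in control and 529 and 651 in *thia*. *Cct6b*, a testis-specific relative of *Cct6a*, was at 0.497 to 1.20 CPM in all libraries (log2 fold change 0.07 in F3), and *Cct8l1* was too low to test.

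The promoters of all members were searched for the heat shock element, in which units GAA and TTC alternate with 2 bases between them. Any part of this element in the F3 differences was not tested. The 2-unit forms GAANNTTC and TTCNNGAA, read on both strands, are present in 7.86% and 8.52% of the 32851 RefSeq promoter windows (GRCm38.p6), each running from 250 bases before to 50 after a start. Among genes of the CCT family, *Cct2*, *Cct5* and *Cct6a* each have a window with 1 such match, and the untested *Cct8l1* has one as well. Another window of *Cct2* and another of *Cct5* have none. No match was found for *Tcp1*, *Cct3*, *Cct4*, *Cct7* or *Cct8*, though 19 members have no window. Over all members, 14 of 105 windows have GAANNTTC and 9 have TTCNNGAA. The matching windows of *Cct2*, *Cct5* and *Cct6a* lie at chr10:117063326-117063625 (minus strand), chr15:31601797-31602096 (minus strand) and chr5:129787106-129787405 (plus strand). They are printed 5′ to 3′ on the strand of the gene, with the match in capitals.
Cct2: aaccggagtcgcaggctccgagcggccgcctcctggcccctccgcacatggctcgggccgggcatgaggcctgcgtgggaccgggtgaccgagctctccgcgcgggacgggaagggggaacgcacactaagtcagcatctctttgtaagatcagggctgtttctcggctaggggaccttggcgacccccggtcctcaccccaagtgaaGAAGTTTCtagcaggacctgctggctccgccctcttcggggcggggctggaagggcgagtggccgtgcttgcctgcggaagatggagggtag
Cct5: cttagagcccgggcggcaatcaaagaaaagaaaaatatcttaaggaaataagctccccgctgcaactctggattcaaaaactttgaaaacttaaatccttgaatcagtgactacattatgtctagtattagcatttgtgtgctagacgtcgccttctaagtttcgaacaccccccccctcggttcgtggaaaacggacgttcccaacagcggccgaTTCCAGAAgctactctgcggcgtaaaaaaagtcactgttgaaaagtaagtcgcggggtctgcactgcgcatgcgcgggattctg
Cct6a: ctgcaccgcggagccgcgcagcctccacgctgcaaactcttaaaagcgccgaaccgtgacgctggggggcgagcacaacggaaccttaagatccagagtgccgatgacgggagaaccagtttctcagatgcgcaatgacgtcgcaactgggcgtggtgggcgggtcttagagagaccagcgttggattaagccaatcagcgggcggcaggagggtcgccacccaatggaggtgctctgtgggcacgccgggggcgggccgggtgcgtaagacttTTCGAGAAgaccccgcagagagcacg

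Prefoldin genes, whose products carry unfolded actin and tubulin to TRiC, leaned the same way in F3. All 5 had negative log2 fold changes there. The 3 *thia* libraries were below the 3 controls in 4 of them (all genes, 13.9%), the exception being *Pfdn2* (-0.02). *Pfdn1* had 153, 139.7 and 126 CPM in F3 control and 113, 91.8 and 106 in F3 *thia*. That gene gave a log2 fold change of -0.43 ± 0.103 SE, edgeR adjusted p = 0.109, and DESeq2 gave an adjusted p of 0.0185. *Pfdn5*, the highest of the family per kilobase, had 520.4, 469 and 487 against 350.2, 424 and 432 CPM, a log2 fold change of -0.29 ± 0.104 SE, edgeR adjusted p = 0.176. *Pfdn4* gave -0.27 ± 0.0966 SE, edgeR adjusted p = 0.179. In F1 the fold changes were from -0.11 to 0.14 and the groups overlapped in every prefoldin gene. When the trend of the fold changes with transcript length was removed, *Pfdn4* and *Pfdn5* moved to -0.12 and -0.14 and *Pfdn1* to -0.28, *Pfdn2* and *Pfdn6* (-0.14) turned to 0.07 and 0.02, and the family median moved from -0.27 to -0.12.

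A list of 14 other genes for actin and tubulin folding also holds a tubulin gene, *Tuba1b*, which is not a folding gene. Of the 14, 5 had a p under 0.05 in F3, all lower in *thia* (all genes, 10.0%), and the median was -0.15. *Vbp1*, which encodes the remaining prefoldin subunit, had 103, 106 and 105 CPM in F3 control and 81.7, 91.1 and 85.2 in F3 *thia* (log2 fold change -0.29 ± 0.0694 SE, edgeR adjusted p = 0.11). The tubulin cofactor gene *Tbca* gave -0.29 ± 0.0747 SE, edgeR adjusted p = 0.119. In F1, 1 of the 14, *Tbce*, had a p under 0.05 and was lower (-0.34 ± 0.109 SE, edgeR adjusted p = 0.507).

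*Ppih*, a cyclophilin of the U4/U6.U5 small nuclear ribonucleoprotein of the spliceosome, had the largest fold change of the 96 genes in F3. The gene lies at chr4:119300010-119320546 on the minus strand (GRCm38, GENCODE M21). Its level was 106, 92.2 and 106 CPM in F3 control and 40.2, 30.5 and 40.6 in F3 *thia*. Every *thia* library was far below every control library. The log2 fold change was -1.45 ± 0.128 SE, edgeR adjusted p = 0.101, and DESeq2 gave an adjusted p of 6.84e-19. In F1 the libraries were spread and overlapped, with 60.8, 48.8 and 35.9 CPM in control and 59.5, 24.9 and 39.8 in *thia* (log2 fold change -0.21 ± 0.272 SE, edgeR adjusted p = 0.8). The F3 *thia* level therefore lay within the range of the F1 libraries, and the F3 control level above all of them.

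*Ppie*, another spliceosomal cyclophilin, had 64.2, 58.0 and 56.8 CPM in F3 control and 44.9, 45.9 and 48.8 in F3 *thia*, without overlap. The log2 fold change of *Ppie* was -0.36 ± 0.0785 SE, edgeR adjusted p = 0.105. The plot of the cyclophilins by library shows that 7 of the 8 genes had all F3 *thia* libraries below all controls (all genes, 13.9%). The exception was *Ppig* (0.10). *Ppia*, the abundant cytosolic cyclophilin A at 859 CPM per kb, had 1321, 1252 and 1340 against 1072, 1094 and 1108 CPM (log2 fold change -0.26 ± 0.0745 SE, edgeR adjusted p = 0.134). *Ppid*, which partners HSP90, gave -0.28 with an edgeR adjusted p of 0.171. *Ppib*, the cyclophilin of the endoplasmic reticulum, had 525, 519.8 and 497 against 470.3, 473 and 484 CPM and a log2 fold change of -0.11 ± 0.0669 SE, edgeR adjusted p = 0.382. *Ppic* and the mitochondrial *Ppif* gave -0.15 and -0.16. With the length trend removed, the median of the cyclophilins moved from -0.21 to -0.08. *Ppia* moved to -0.12 and *Ppie* to -0.22, while *Ppih* was at -1.34. *Ppic* and *Ppif* moved to -0.03 and -0.04, *Ppib* turned to 0.05 and *Ppig* to -0.04.

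**Figure D3:**
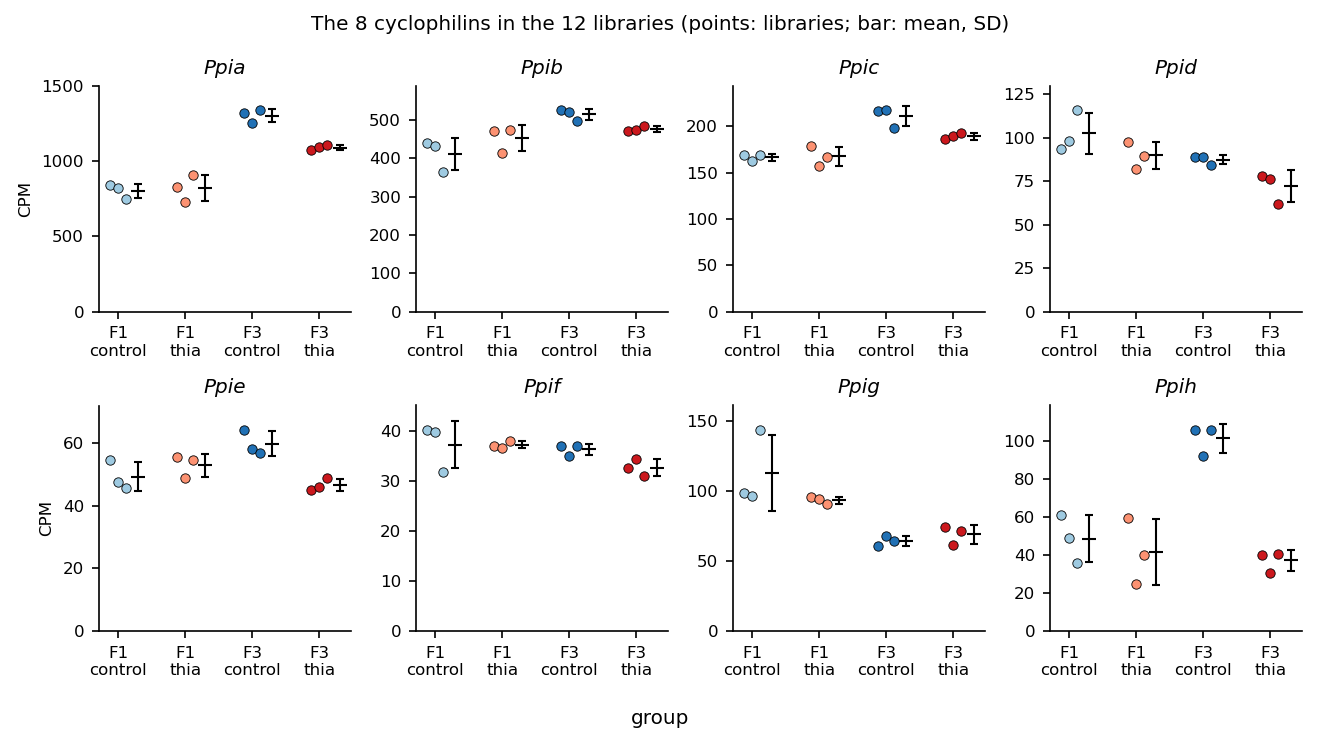
Level in CPM (vertical axis, from 0) of the 8 cyclophilin genes in the 12 libraries by group (horizontal axis), with points for libraries and a bar for the mean and SD of 3. The 3 F3 control libraries of *Ppih* lie between 92.2 and 106 CPM and all other libraries at or below 60.8.

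Of the 5 genes listed for the spliceosome (*Ppih*, *Ppie*, *Ppig*, *Dnajc8* and *Dnajc17*), 3 had a p under 0.05 in F3, all lower (all genes, 10.0%). *Dnajc8* had 131, 135 and 139 against 114, 127 and 109 CPM (log2 fold change -0.21 ± 0.0789 SE, edgeR adjusted p = 0.188), and was at -0.09 with the length trend removed. Outside the families, 5 of 12 further prolyl isomerase genes had a p under 0.05 in F3, all lower (all genes, 10.0%). The median of the list was -0.07. *Ppil3*, a spliceosomal cyclophilin, had 44.5, 41.0 and 43.3 CPM in control and 31.7, 32.6 and 33.2 in *thia*, a log2 fold change of -0.40 ± 0.0737 SE, edgeR adjusted p = 0.105. *Ppil1* gave -0.30 ± 0.0757 SE, edgeR adjusted p = 0.117. The promoter window of *Ppih*, at chr4:119320474-119320773 (minus strand), is shown because this gene had the largest difference, with the 1 match to GAANNTTC in capitals.
Ppih: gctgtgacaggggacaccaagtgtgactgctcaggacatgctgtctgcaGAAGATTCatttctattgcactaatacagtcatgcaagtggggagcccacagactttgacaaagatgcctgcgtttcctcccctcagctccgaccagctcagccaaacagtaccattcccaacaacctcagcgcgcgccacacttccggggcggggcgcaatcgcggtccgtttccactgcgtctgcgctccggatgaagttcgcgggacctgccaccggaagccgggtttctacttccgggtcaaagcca

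The FKBPs did not share a direction. Of 14 genes, 2 were lower and 1 higher in F3 at a p under 0.05. These counts are near the shares of all genes, 10.0% lower and 11.0% higher. *Fkbp4*, the HSP90 partner of steroid receptors, had 500.3, 490.3 and 467 CPM in F3 control and 440.5, 391 and 383 in F3 *thia*, without overlap. The log2 fold change was -0.27 ± 0.0789 SE, edgeR adjusted p = 0.139. *Fkbp5*, which acts on the same receptors and is a target of steroid hormones, differed the other way, with 132, 148 and 142 against 186, 145 and 179 CPM, where 1 *thia* library lay among the controls. Its log2 fold change was 0.27 ± 0.106 SE, edgeR adjusted p = 0.202. The nuclear *Fkbp3* had 142, 142 and 138 against 117, 111 and 120.2 CPM, a log2 fold change of -0.28 ± 0.0654 SE, edgeR adjusted p = 0.107, which moved to -0.13 with the length trend removed.

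*Fkbp1a*, the binding protein of FK506 and rapamycin, is the second of the family per kilobase at 191 CPM per kb, after *Fkbp4* at 206. It had 371, 382 and 358 against 339, 340.0 and 351 CPM in F3 (log2 fold change -0.11 ± 0.0666 SE, edgeR adjusted p = 0.385). A list of 8 folding genes of the endoplasmic reticulum held *Ppib*, *Fkbp2*, *Fkbp7*, *Fkbp9*, *Fkbp10*, *Fkbp11*, *Fkbp14* and *Dnajb11*. It had a median of 0.11 in F1 and 0.02 in F3, and none of its genes had a p under 0.05. In F1, 11 of the 14 FKBPs were above 0, from *Fkbp3* at -0.11 to *Fkbp10* and *Fkbp11* at 0.22, and none had a p under 0.05.

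HSP70 genes differed widely in level. *Hspa8*, the constitutive cytosolic HSP70, and *Hspa5*, the HSP70 of the endoplasmic reticulum (BiP), had 506 and 389 CPM per kb over the 12 libraries, while *Hspa1l* had 0.142. *Hspa8* had 1385, 1258 and 1239 CPM in F3 control and 1217, 940.1 and 875 in F3 *thia*. The *thia* libraries were below the controls, 1 of them by little, and the log2 fold change was -0.36 ± 0.129 SE, edgeR adjusted p = 0.179. *Hspa14*, a ribosome-bound member, had 79.7, 72.8 and 77.3 against 65.3, 67.3 and 60.9 CPM (log2 fold change -0.25 ± 0.0729 SE, edgeR adjusted p = 0.135), and was at -0.16 with the length trend removed. *Hspa5* had 969, 1054 and 956 against 969.6, 858 and 862 CPM, which overlapped (-0.15 ± 0.0825 SE, edgeR adjusted p = 0.349).

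*Hspa12a*, an atypical HSP70, had the smallest unadjusted p of the 96 genes in F1. Its level was 62.2, 67.4 and 61.6 CPM in F1 control and 47.7, 50.4 and 52.7 in F1 *thia*, without overlap. The log2 fold change was -0.33 ± 0.0879 SE, edgeR adjusted p = 0.446, and it was the gene that DESeq2 called in F1, at an adjusted p of 0.142. In F3 the groups overlapped, with 40.0, 55.8 and 53.3 against 54.7, 52.5 and 66.6 CPM (log2 fold change 0.22). In F1, 12 of the 13 HSP70 genes had a fold change below 0, where 48.0% of all genes did, with a median of -0.07. That median was -0.02 without *thia* replicate 2, the library with the high muscle markers, and -0.13 without *thia* replicate 3. The heat-inducible *Hspa1a* and *Hspa1b*, whose near-identical sequences make their separate counts uncertain, stayed at 5.49 to 12.8 and 14.8 to 26.8 CPM over all libraries, and neither had a p under 0.05 (F3 log2 fold changes 0.33 and 0.17).

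*Hsp90ab1*, the constitutive cytosolic HSP90, was the highest of the 100 genes per kilobase, with 1162 CPM per kb. It was 3016, 2899 and 2959 CPM in F3 control and 2958, 2873 and 2836 in F3 *thia*, a log2 fold change of -0.04 ± 0.0743 SE, edgeR adjusted p = 0.816. Its inducible relative *Hsp90aa1* had 940.4, 922 and 804 against 973, 689 and 624 CPM, where replicate 1 of *thia* exceeded all controls (log2 fold change -0.22). *Hsp90b1*, the form of the endoplasmic reticulum, had 683, 848 and 689 against 948, 749.9 and 869 CPM (0.21 ± 0.121 SE, edgeR adjusted p = 0.37).

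The partners of HSP90 leaned lower in F3, though none passed the adjusted test. Of 15 co-chaperone genes outside the families, 8 had a p under 0.05, all lower in *thia* (all genes, 10.0%). The median of the list was -0.19. *Ttc4* had 68.6, 63.4 and 62.7 against 55.0, 49.2 and 49.3 CPM (log2 fold change -0.34 ± 0.0761 SE, edgeR adjusted p = 0.105), and *Sugt1* -0.34 ± 0.0777 SE, edgeR adjusted p = 0.106. In F1, 4 of the 15 had a p under 0.05, all lower (all genes, 4.13%). Among them were *Chordc1* with 62.1, 63.8 and 91.8 against 57.7, 48.4 and 58.2 CPM (log2 fold change -0.39) and *Cdc37l1* (-0.37 ± 0.117 SE, edgeR adjusted p = 0.508). Of 15 cofactors of HSP70, 5 were lower and 1 higher in F3 at a p under 0.05 (all genes, 10.0% lower and 11.0% higher). *Grpel1*, the nucleotide exchange factor of the mitochondrial HSP70, gave -0.22 ± 0.0617 SE, edgeR adjusted p = 0.129, and *Bag1* -0.24 ± 0.0717 SE, edgeR adjusted p = 0.142. The small heat shock proteins and heat shock factors had a median of 0.20 in F1 and -0.08 in F3. At a p under 0.05, 1 was higher (*Hspb1*, 0.37 ± 0.140 SE, edgeR adjusted p = 0.523) and 1 lower (*Hsf2*, -0.26 ± 0.115 SE, edgeR adjusted p = 0.563) in F1. The shares of all genes in F1 were 4.63% higher and 4.13% lower. None had a p under 0.05 in F3. A list of 11 heat shock genes of the families, not all of them heat-inducible since it holds the constitutive *Hspa8*, had a median of -0.03 in F1. Its F3 median was -0.18, with 3 genes above 0 and 8 below. Of these, 4 had a p under 0.05, all lower (*Hspa8*, *Dnaja1*, *Hspe1* and *Fkbp4*), against 10.0% of all genes.

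The mitochondrial chaperonin genes *Hspd1* (HSP60) and *Hspe1* (HSP10) parted in F3. They lie head to head at chr1:55077835-55088243 (minus strand) and chr1:55088132-55091307 (plus strand), with starts that overlap on opposite strands, and form one complex. *Hspe1* had 396, 439 and 485 CPM in F3 control and 364, 378 and 355 in F3 *thia*, every *thia* library below every control. Its log2 fold change was -0.27 ± 0.0935 SE, edgeR adjusted p = 0.17. *Hspd1* had 394, 428 and 508 against 551, 477 and 508 CPM, which overlapped, with a log2 fold change of 0.20 ± 0.115 SE, edgeR adjusted p = 0.352.

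The ratio of *Hspe1* to *Hspd1* CPM within a library, chosen after these values were seen and so given without a test, separated the F3 controls from the rest. It was 1.00, 1.03 and 0.955 in F3 control and 0.662, 0.792 and 0.699 in F3 *thia*. In F1 it was 0.612, 0.649 and 0.581 in control and 0.714, 0.540 and 0.635 in *thia*. With the length trend removed, *Hspe1*, a short transcript, moved from -0.27 to -0.10. The heat shock units lie in windows of both genes, which overlap. The window of *Hspe1*, at chr1:55087898-55088197 (plus strand), is one of 0.603% of all windows with 3 or more heat shock units in a row. It holds 4, and is printed on the strand of *Hspe1* with the units in capitals.
Hspe1: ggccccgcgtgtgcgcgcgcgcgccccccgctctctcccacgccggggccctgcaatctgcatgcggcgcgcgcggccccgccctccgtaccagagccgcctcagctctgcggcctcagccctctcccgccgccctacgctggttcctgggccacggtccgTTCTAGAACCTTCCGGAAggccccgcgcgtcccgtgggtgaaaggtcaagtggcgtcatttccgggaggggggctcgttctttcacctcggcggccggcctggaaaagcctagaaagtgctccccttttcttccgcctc

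**Figure D4:**
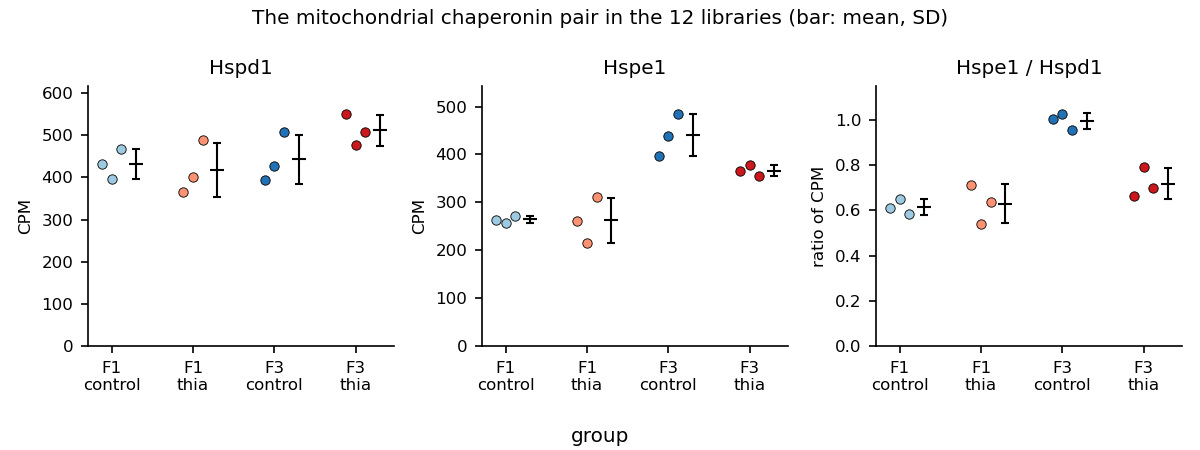
Levels in CPM of *Hspd1* and *Hspe1* and their ratio (vertical axes, from 0) in the 12 libraries by group (horizontal axis), with points for libraries and a bar for the mean and SD of 3. The ratio of the F3 control libraries is at or above 0.955 and that of all other libraries at or below 0.792.

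Over the 11 mitochondrial members the F3 median was 0.01, and *Hspe1* alone had a p under 0.05. *Hspa9*, the mitochondrial HSP70, had 354, 344 and 347 against 362, 334 and 309 CPM, and *Dnaja3* 53.1, 48.8 and 56.3 against 51.9, 50.3 and 51.1, both overlapping. Of 13 other mitochondrial chaperones and proteases, 4 were lower and 1 higher in F3 at a p under 0.05 (all genes, 10.0% lower and 11.0% higher). They included the import chaperone *Timm9* (-0.38 ± 0.117 SE, edgeR adjusted p = 0.146) and, higher, the protease *Afg3l2* (0.21 ± 0.0668 SE, edgeR adjusted p = 0.151).

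J-domain genes had fold changes in both directions. *Dnaja1*, the main cytosolic partner of *Hspa8*, had a negative log2 fold change at a p under 0.05 in both generations. It had 421, 439 and 506 CPM in F1 control and 392, 354 and 389.9 in F1 *thia*, without overlap (log2 fold change -0.25 ± 0.103 SE, edgeR adjusted p = 0.556). In F3 it had 406, 382 and 333 against 354, 261 and 256 CPM, with 1 *thia* library among the controls (-0.37 ± 0.139 SE, edgeR adjusted p = 0.194). *Dnaja2*, its relative, had 219.6, 207 and 192 against 189, 172 and 159 CPM in F3 (-0.25 ± 0.0862 SE, edgeR adjusted p = 0.168). The highest *Dnaja* genes per kilobase were *Dnaja2* and *Dnaja1* at 69.3 and 64.8 CPM per kb, against 5.78 for *Dnaja4*.

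*Dnajb6*, which suppresses aggregation of polyglutamine proteins, was the other gene at a p under 0.05 in both generations. Its level was 109, 116 and 135 CPM in F1 control and 101, 99.1 and 104 in F1 *thia* (log2 fold change -0.23 ± 0.0982 SE, edgeR adjusted p = 0.561). In F3 it was 122, 121 and 113 in control and 97.9, 101 and 92.0 in *thia* (-0.29 ± 0.0685 SE, edgeR adjusted p = 0.108). The F1 value was -0.14 without control replicate 3, the highest of its group. The groups did not overlap in either generation, and DESeq2 called the gene in F3 at an adjusted p of 0.0384. Besides *Hspd1* and *Hspe1*, it is the remaining member whose window has 3 or more heat shock units in a row, of 81 members with a window. That window, with 3 units, is at chr5:29735648-29735947 (plus strand), with the units in capitals.
Dnajb6: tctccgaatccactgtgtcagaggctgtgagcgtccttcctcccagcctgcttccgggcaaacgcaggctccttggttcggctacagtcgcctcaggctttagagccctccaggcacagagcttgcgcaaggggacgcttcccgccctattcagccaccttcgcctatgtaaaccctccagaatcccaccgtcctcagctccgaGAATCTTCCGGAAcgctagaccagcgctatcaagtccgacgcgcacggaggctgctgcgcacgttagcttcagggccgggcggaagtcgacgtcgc

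*Dnajb12*, a J-domain protein in the membrane of the endoplasmic reticulum, differed upward in F3, with 19.1, 23.6 and 22.0 CPM in control and 28.0, 27.3 and 28.9 in *thia*, without overlap. This was a log2 fold change of 0.38 ± 0.0996 SE, edgeR adjusted p = 0.121. *Dnajb1*, the heat-inducible partner of HSP70 and the highest *Dnajb* gene at 32.0 CPM per kb, had 113, 102 and 104 against 103, 98.3 and 79.8 CPM (-0.18, overlapping). Of the 27 *Dnajc* genes tested, 4 were higher and 3 lower in F3 at a p under 0.05, and none in F1. The F3 counts are near the shares of all genes, 11.0% higher and 10.0% lower.

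*Dnajc16* had 18.4, 20.5 and 17.2 against 26.6, 23.9 and 28.1 CPM in F3 (log2 fold change 0.49 ± 0.105 SE, edgeR adjusted p = 0.105), every *thia* library above every control. *Dnajc24*, a factor of diphthamide synthesis, had 21.2, 22.3 and 20.4 against 15.2, 16.5 and 16.4 CPM (-0.41 ± 0.0890 SE, edgeR adjusted p = 0.105), every *thia* library below. *Dnajc9*, a histone chaperone, gave -0.26 ± 0.0675 SE, edgeR adjusted p = 0.119. The other higher genes were *Dnajc1* (0.31), *Dnajc3* (0.18) and *Dnajc21* (0.23). With the length trend removed, *Dnajc1* moved to 0.12, *Dnajc3* to 0.08, *Dnajc9* to -0.15 and *Dnajc24* to -0.27, while *Dnajc16* and *Dnajc21* were at 0.36 and 0.29. *Dnajc10*, a reductase of the endoplasmic reticulum at 64.2 CPM per kb, had 259, 263 and 218 against 249.7, 212 and 228 CPM (-0.10, overlapping).

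The chaperones of the endoplasmic reticulum that the unfolded protein response induces did not share a direction. Of 8 such genes, 4 were above and 4 below 0 in F3. At a p under 0.05, 1 was higher (*Dnajc3*) and 1 lower (*Dnajb9*), beside 11.0% higher and 10.0% lower among all genes. *Dnajb9* had 75.6, 74.9 and 65.0 against 62.9, 58.8 and 64.2 CPM (-0.21 ± 0.0810 SE, edgeR adjusted p = 0.194). *Dnajb11*, a partner of BiP, had 80.5, 90.0 and 76.4 against 102, 86.7 and 95.5 CPM (0.20, overlapping). Of 12 other genes listed for the response, 4 had a p under 0.05 in F3, all higher (all genes, 11.0%), with a median of 0.20. The list holds sensors and transmitters but not these alone, since *Asns* is on it. *Ern1*, the sensor IRE1, had 8.90, 11.4 and 11.8 against 16.5, 15.7 and 23.6 CPM (log2 fold change 0.80 ± 0.195 SE, edgeR adjusted p = 0.112), and *Atf6* 0.32 ± 0.0784 SE, edgeR adjusted p = 0.112. Of 15 other folding enzymes of the endoplasmic reticulum, 4 had a p under 0.05 in F3, all higher (all genes, 11.0%). They were led by *Pdia5* (0.28 ± 0.0861 SE, edgeR adjusted p = 0.146) and *Uggt1* (0.21 ± 0.0640 SE, edgeR adjusted p = 0.147).

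*Hspa5*, *Hsp90b1* and *Dnajc3* share the stress element of the endoplasmic reticulum, CCAAT and CCACG with 9 bases between them, which is found in 0.119% of all windows on either strand. The F3 log2 fold changes of the 3 genes were -0.15, 0.21 and 0.18. The windows are at chr2:34771840-34772139 (plus strand), chr10:86705395-86705694 (minus strand) and chr14:118937682-118937981 (plus strand), with the element in capitals, present in 2 copies in *Hsp90b1*.
Hspa5: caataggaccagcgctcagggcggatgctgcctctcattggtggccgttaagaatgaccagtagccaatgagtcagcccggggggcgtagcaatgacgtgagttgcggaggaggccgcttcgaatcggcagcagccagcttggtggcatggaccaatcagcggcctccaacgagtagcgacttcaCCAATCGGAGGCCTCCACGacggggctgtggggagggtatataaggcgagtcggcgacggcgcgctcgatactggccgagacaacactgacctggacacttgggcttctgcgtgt
Hsp90b1: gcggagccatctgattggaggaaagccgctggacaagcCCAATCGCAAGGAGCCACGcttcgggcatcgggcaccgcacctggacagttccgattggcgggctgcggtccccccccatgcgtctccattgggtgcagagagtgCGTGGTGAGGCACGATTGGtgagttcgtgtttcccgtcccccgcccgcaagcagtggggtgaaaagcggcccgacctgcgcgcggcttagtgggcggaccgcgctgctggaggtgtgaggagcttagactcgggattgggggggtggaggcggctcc
Dnajc3: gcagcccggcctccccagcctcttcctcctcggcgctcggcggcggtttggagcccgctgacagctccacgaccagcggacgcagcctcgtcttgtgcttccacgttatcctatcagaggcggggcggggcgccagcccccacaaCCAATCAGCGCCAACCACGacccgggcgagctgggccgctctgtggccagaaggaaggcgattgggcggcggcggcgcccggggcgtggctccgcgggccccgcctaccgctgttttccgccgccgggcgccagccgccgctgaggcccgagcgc

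Members with known germ cell expression were few and mostly low. Of 12, 9 were tested, with a median of -0.01 in F1 and -0.23 in F3 and none with a p under 0.05. *Fkbp6*, needed for meiosis and for transposon silencing in germ cells, was by far the highest, with 160.0, 223 and 167 CPM in F1 control and 212, 196 and 202 in F1 *thia*. In F3 it had 159, 140.2 and 112 and 157, 87.5 and 101 CPM (log2 fold change -0.25 ± 0.223 SE, edgeR adjusted p = 0.553), and in both F3 groups replicate 1 was the highest, as for TRiC and for the germ cell markers. *Hspa2*, the testis HSP70, was at 18.9 to 28.6 CPM in all libraries. *Cct8l1*, *Dnajb7*, *Dnajb8* and *Dnajc5b* had at most 0.189 CPM in any library and were not tested.

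The effects in F1 and F3 were compared in 1 fit of the 12 libraries. No member passed at an FDR of 0.1, where 0.0051% of all genes did. DESeq2 called 6 of 92 (all genes, 4.74%): *Ppih*, *Ppie*, *Dnajc24*, *Cct4*, *Hspa12a* and *Pfdn1*. Without adjustment, the effect was lower in F3 than in F1 for 12 of 96 genes at an edgeR p under 0.05 (all genes, 6.10%) and higher for 7 (7.93%).

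*Ppie* had the smallest unadjusted p, with a difference of -0.46 ± 0.125 SE, edgeR adjusted p = 0.248. *Ppih* gave -1.22 ± 0.363 SE, edgeR adjusted p = 0.252. *Hspa12a* was at 0.57 ± 0.173 SE, edgeR adjusted p = 0.254, the effect being negative in F1 and positive in F3. *Dnajc24* gave -0.41 ± 0.126 SE, edgeR adjusted p = 0.254. *Dnajc21*, a factor of ribosome assembly, gave 0.43 ± 0.137 SE, edgeR adjusted p = 0.254. It had 22.4, 22.7 and 28.4 CPM in F1 control and 21.2, 20.9 and 21.8 in F1 *thia*, all below, then 17.8, 18.4 and 18.7 in F3 control and 21.8, 21.1 and 21.4 in F3 *thia*, all above. *Dnajb12*, *Pfdn1* and *Cct4* gave differences of 0.40, -0.48 and -0.32. The TRiC subunits had differences between -0.40 and -0.18, of which *Cct3*, *Cct4*, *Cct5* and *Tcp1* had a p under 0.05.

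**Figure D5:**
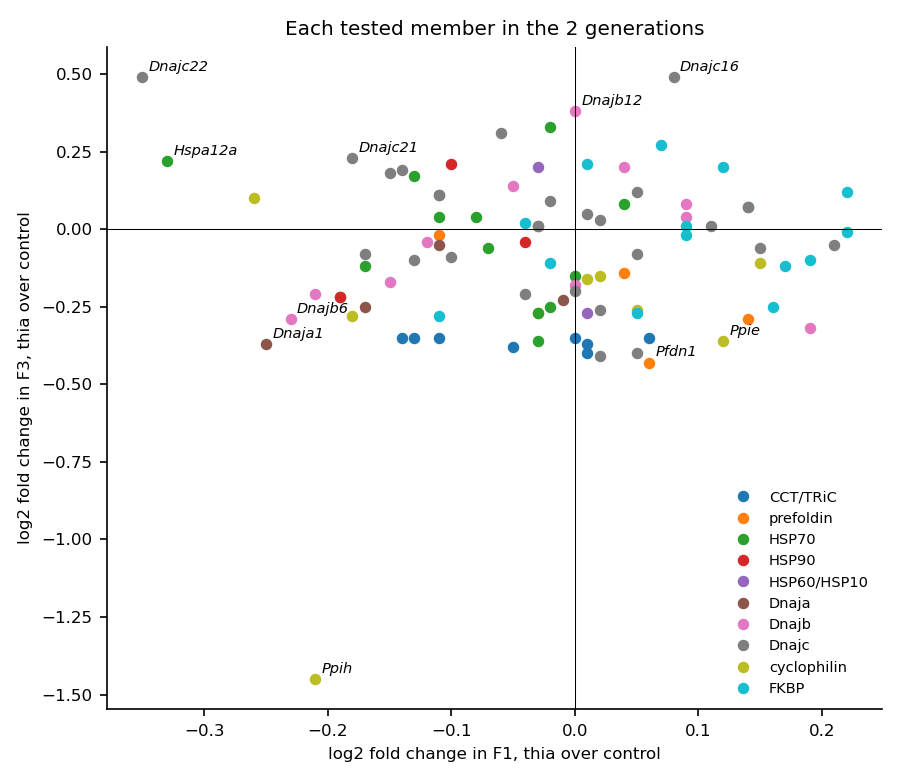
Log2 fold change of *thia* over control in F1 (horizontal axis) against F3 (vertical axis) for the 96 tested genes, coloured by family. *Ppih* lies alone at -1.45 in F3, the TRiC genes lie in a row near -0.35 over a range of F1 values, and *Hspa12a* and *Dnajc21* lie below 0 in F1 and above 0 in F3.

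Levels also differed between the generations in control libraries. Of the 92 members above 1 CPM on average, 31 had all F3 controls above all F1 controls and 25 had all below, where 24.6% of all genes above that level were above and 29.5% below. Generation and the handling of its libraries cannot be told apart.

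The genes lower and higher in F3 *thia* also differed in length and level, which the choice by symbol did not use. The 25 lower genes had a median transcript length of 1795 bases and a median level of 202 CPM. The 6 higher genes had 4342 bases and 28.5 CPM, and the remaining 65 tested genes 2784 bases and 55.4 CPM. With the length trend removed, 16 of the 25 and 4 of the 6 kept a p under 0.05. *Ppia*, *Hspe1* and *Hspa8* are known to have processed copies elsewhere in the genome, and the handling of reads with several matches is not given in the sources used here, so their counts are uncertain. The span of 9 members overlaps another counted gene on the same strand, as in *Pfdn5* with *Myg1*, and that of 36 members a gene on the opposite strand, as in *Hspd1* with *Hspe1*.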

How the data were processed

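Total RNA of 12 pools of E15.5 testes was sequenced as paired-end, strand-specific libraries. The authors aligned the reads to mm10 with HISAT2 2.1.0 and assigned them to refGene genes by featureCounts. The raw counts they deposited were used here as they are. Counter version and options are not given in the sources used here. Genes were filtered with filterByExpr (minimum count 10), scaled by TMM and tested in F1 and F3 separately by edgeR 4.0.16 (quasi-likelihood, R 4.3.3), with Benjamini-Hochberg adjustment over all genes tested, at the FDR of the study (0.15 in F1, 0.1 in F3). The difference between generations was tested in 1 fit of 12 libraries. SE was derived from that test, and p-values measure the spread between pools. Each library held 25081647 to 68996146 counts. Transcript lengths and positions came from GENCODE M21, matched by symbol for all 100 members (99 with a curated length; that of *Cct6a* rests on all its exons). Alternatives were DESeq2 1.42.0, other scalings and filters, a replicate block, removal of the length trend by loess, and leaving out each library. The scripts were tested on simulated data. Tables and figures were made in Python.

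The members, families and gene lists were chosen with earlier results of these data known. Full statistics are given for members past a threshold, for the 3 smallest p under 0.05 in each family and generation, for the 2 highest levels per kilobase in each family, and for the 8 smallest p of the difference between generations. Other gene lists name at most the 2 genes with the smallest p.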

Additional observations from a re-analysis of the deposited data

Results flagged for a closer look

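In 2 genes all *thia* libraries lay on one side of the controls in F1 and on the other side in F3. Over all genes tested, 8.45% were below the controls in F1 and 13.4% above them in F3. The share of all genes that did both is not given here, so the 2 genes are a description only. *Dnajc21* was below the controls in F1 and above them in F3, with a log2 difference of the effects, F3 minus F1, of 0.43, with an edgeR adjusted p of 0.254. *Dnajc14* did the same with a difference of 0.12 (F1 log2 fold change -0.02, F3 0.09, edgeR adjusted p = 0.55). Neither difference passed at an FDR of 0.1. Groups of 3 libraries were too small to look for single outlying libraries.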

How the results depend on the processing

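No member was called in F1 or F3, and this depended on the tool and the fit in F3. DESeq2 called 1 member in F1, 18 in F3 and 6 for F3 minus F1. In F3, edgeR called 8 with upper quartile scaling, 3 without a filter and 2 with 10 counts in every library. It called 19 with the 12 libraries in 1 fit and 16 at an FDR of 0.15 (all genes, 9.85%). With 1 library left out it called 0 to 8, 8 without *thia* replicate 2. For the other edgeR fits the share of all genes called is not given here. Their counts thus show only how the calls depended on the processing. The members at a p under 0.05 in F1 numbered 3, or 5 without a filter, and 1 to 11 when 1 library was left out, 11 without control replicate 1. In F3 they numbered 31, and 19 to 32 when 1 library was left out, 19 without control replicate 1 and 20 without *thia* replicate 3. The median over members in F3, -0.084, was -0.114 with upper quartile scaling, -0.044 with the length trend removed, -0.049 with the replicate block and the length trend removed, and -0.119 to -0.078 when 1 library was left out. The small F3 family medians changed sign, to 0.068 for *Dnajb* without *thia* replicate 3; to -0.015 (upper quartile scaling), -0.007 (length trend removed), -0.010 (the same with the replicate block) and -0.013 (without *thia* replicate 3) for *Dnajc*; and to 0.055 and 0.056 for FKBPs with the length trend removed, without and with the block. The HSP60/HSP10 median, -0.032, turned to 0.074 and 0.080 with the length trend removed, without and with the block, and to 0.069 without control replicate 3, and the HSP70 median, -0.060, to 0.011 without *thia* replicate 3. In F1, where most family medians lay near 0, those of the CCT, prefoldin, HSP60/HSP10, *Dnajb*, *Dnajc* and cyclophilin genes changed sign under at least 1 alternative, and the median over members, -0.017, was 0.003 with upper quartile scaling. The cyclophilin median in F3 moved to -0.080 with the length trend removed. The cause was not tested. Over the fits that left out 1 library, the medians ranged from -0.161 to 0.068 for *Dnajb*, from -0.013 to 0.035 for *Dnajc* and from -0.450 to -0.270 for the CCT family. Replicate numbers did not pair the libraries (correlations of same-numbered libraries from -0.368 to 0.195). With the replicate block, 0 members were called and 27 had a p under 0.05 in F3, against 2 in F1. At these depths, members below about 0.2 CPM gave no test.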
